A study of Mus musculus with 9 samples.

Results

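The 6 cell lines grown from metastases of 4T1 mouse mammary carcinoma were compared, as 1 pooled group, with the 3 lines grown from primary tumors, and all 9 lines of the series entered the comparison. The groups were chosen by the array titles alone. The question was which genes the metastasis lines of both organs place on the same side of every primary line, and whether the change is graded from lung to brain lines. Of the metastasis lines, 3 came from brain (labelled 4T1-BM2) and 3 from lung (labelled 4T1-LM2), and the primary lines are labelled 4T1-T2. The 9 lines were derived from 9 mice and each was read on 1 array, and the lines of an origin are numbered 1 to 3 as in the titles. No genetic change or drug is given for any group, and strain or age of the mice is not given in the sources used here. What the shared name of an origin's lines marks is not stated, so lines of 1 origin may share a selected ancestor, in which case they would count as fewer independent samples. The lines were cultured and extracted in parallel, so the values describe cells in a dish and not tumor tissue.

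4T1 cells form tumors in the mammary fat pad that shed cells to lung, bone, liver and, less often, brain. A metastasis has passed through entry into the blood, survival there and outgrowth in a foreign organ, and cells recovered from it may carry what that passage selected as well as what the organ induced. Lines from different organs can share a change evenly or carry it to unequal degrees, and the latter is called graded here.

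Levels are log2 intensities per probe set, and a difference of 1 is a doubling. They can be compared between lines for 1 gene but not between genes. Array medians lay between 5.06 and 5.19. The interquartile range of each line's deviations from the gene medians was widest in brain line 3 (0.178) and lung line 1 (0.164) and was 0.0886 to 0.126 in the other lines. The background level is taken here as 4.21, the median of probe sets with no symbol. Of 11 mammary epithelial markers, Krt18 lay far above it, with a mean of 12.66 in brain, 12.71 in lung and 12.59 in primary lines. Krt14 was also above it, with means of 8.06 in brain, 6.22 in lung and 6.44 in primary lines. Krt5 (4.23 to 4.40) lay near it and Elf5 (3.97 to 4.08) below it. On every line 3 of 8 leukocyte, 3 of 8 endothelial, 3 of 7 astrocyte and 3 of 9 fibroblast markers were below background. Those at or below background by their means included Ptprc (3.87 to 3.92), Pecam1 (4.17 to 4.21), Aqp4 (3.64 to 3.68) and Dcn (3.54 to 3.63). Other members of these lists lay above it, among them Cd68 (6.01 to 6.15), Flt1 (7.61 to 8.13), Gja1 (10.96 to 11.13) and Pdgfra (7.30 to 7.57).

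The pooled comparison called 56 of 19938 genes, which is 0.281% of those tested, with 33 higher (0.166%) and 23 lower (0.115%) in metastasis lines (limma, adjusted p under 0.05). The largest rise was in Gatm (4.99-fold), and the largest falls were in Slc14a1 (3.19-fold) and Dapk1 (2.77-fold). Of the 56 genes, 15 changed at least 2-fold, and the median size of the log2 change was 0.69. In each of the 56 the mean of the brain lines lay beyond that of the lung lines, farther from the primary lines. After median centring of the arrays the calls divided into 32 higher and 14 lower. Other settings called more genes, 116 after a further quantile normalization (57 higher and 59 lower) and 139 with array weights (77 higher and 62 lower). Without adjustment, 1949 genes had a p under 0.05.

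These calls need nearly all lines. Without lung line 2 or without primary line 2 no gene passed in limma (1683 and 1777 genes at an unadjusted p under 0.05). The count was 4 without lung line 1, 1 without lung line 3, 11 without primary line 1, 3 without primary line 3, and 40, 27 and 54 without brain lines 1, 2 and 3. None of the 41 called genes named here kept its call in all 9 of these fits, though each kept its direction. A model of only 2 groups, which counts the gap between brain and lung lines as noise, called 0 genes (smallest adjusted p 0.627, 1411 genes at an unadjusted p under 0.05). With every probe set tested on its own, 0 passed as well (smallest adjusted p 0.111, 2807 at an unadjusted p under 0.05).

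**Figure D1:**
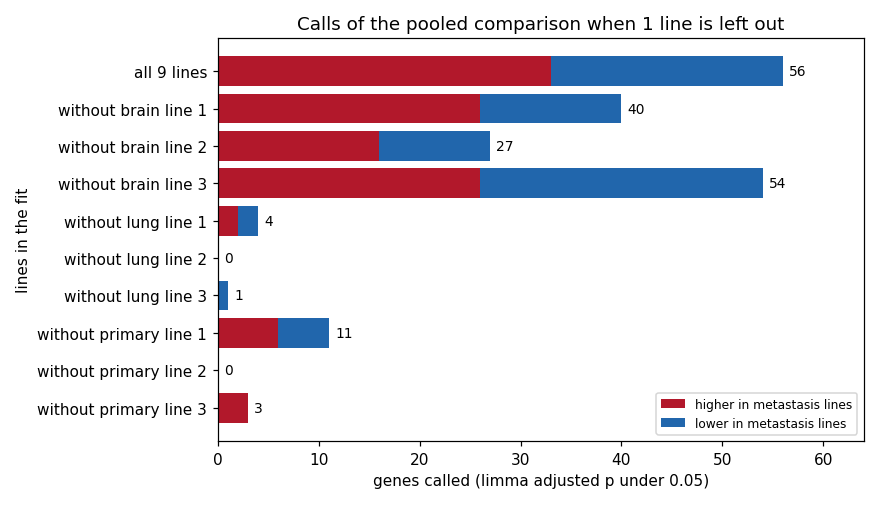
Number of genes called in the pooled comparison (horizontal axis, limma adjusted p under 0.05) in the fit of all 9 lines and in each fit without 1 line (vertical axis), red for genes higher and blue for genes lower in metastasis lines. The count is 56 with all lines, 27 to 54 without a brain line, 0 to 4 without a lung line and 0 to 11 without a primary line.

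The same model, read by origin, called 624 genes (3.13%) between brain and primary lines, 395 (1.98%) between brain and lung lines and 0 between lung and primary lines (smallest adjusted p 0.975, 946 genes at an unadjusted p under 0.05). All 56 genes passed in brain against primary lines, a comparison that uses the same primary lines and brain lines as the pooled one. Their median log2 change in the pooled direction was 1.11 in brain and 0.32 in lung lines. The lung change had the pooled sign in 55 of 56, and Slc25a48 was the exception, with a lung change of 0.00 ± 0.07. The lung lines also entered the pooled comparison that chose these genes. The sign and size of their lung change are therefore partly set by that choice. The lung change was at least 50% of the brain change in 12 genes, between 25% and 50% in 21 and under 25% in 23.

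Whether the groups overlap was counted without a model. In 680 genes (3.41%) all 6 metastasis lines lay on 1 side of all 3 primary lines, 362 above (1.82%) and 318 below (1.59%). Of the 56 called genes 39 were of this kind (0.196% of all genes), 22 above and 17 below, and in the other 17 at least 1 lung line reached into the range of the primary lines while the brain lines did not. The lines can be divided into 6 and 3 in 84 ways. For any gene that separates, the exact permutation test over these divisions gives p = 0.0238 (two-sided), the smallest p it can give. If the lines were interchangeable, a share of 0.0238 of all genes would be expected to separate, beside the 3.41% observed. Much of the count of 680 could therefore arise without any difference between the groups. The gap between the groups was often narrow: among the 680 genes, 28 had a gap of at least 0.2 log2 units, and in Cfap97 and Foxc2 the nearest lines were 0.01 or less apart. The gap was widest in Anxa8 (0.65), Gatm (0.63), Dapk1 (0.46), Arrdc3 (0.45) and Plscr2 (0.44).

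Promoter letters of 4 called genes are shown. They are Ankrd1 and Ccn1, genes driven by the YAP and TEAD factors, Car9, a hypoxia gene, and Gatm, the largest rise. Each run is the 250 bases before the start, 5′ to 3′ on the gene's strand, from RefSeq on GRCm38.p6. Capitals mark GGAATG, the core bound by TEAD factors, in Ankrd1 and Ccn1, and ACGTG, the core bound by hypoxia-inducible factors, in Car9 and Gatm, on either strand. The windows lie at chr19:36119845-36120094, minus strand (Ankrd1), chr3:145649986-145650235, minus strand (Ccn1), chr4:43506776-43507025, plus strand (Car9) and chr2:122611278-122611527, minus strand (Gatm).
Ankrd1: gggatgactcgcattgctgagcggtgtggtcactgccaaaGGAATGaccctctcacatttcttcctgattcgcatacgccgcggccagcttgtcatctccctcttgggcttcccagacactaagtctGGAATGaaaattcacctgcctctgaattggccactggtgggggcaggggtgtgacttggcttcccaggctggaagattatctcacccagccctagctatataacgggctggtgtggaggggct
Ccn1: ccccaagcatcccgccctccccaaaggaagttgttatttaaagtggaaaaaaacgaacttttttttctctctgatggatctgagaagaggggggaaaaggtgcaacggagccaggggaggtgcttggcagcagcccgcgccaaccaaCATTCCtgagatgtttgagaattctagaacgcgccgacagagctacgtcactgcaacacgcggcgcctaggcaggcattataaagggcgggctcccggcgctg
Car9: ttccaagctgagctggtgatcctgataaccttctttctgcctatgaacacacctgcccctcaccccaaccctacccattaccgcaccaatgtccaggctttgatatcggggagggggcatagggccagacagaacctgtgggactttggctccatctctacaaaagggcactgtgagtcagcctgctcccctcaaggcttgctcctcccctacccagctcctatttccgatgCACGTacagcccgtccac
Gatm: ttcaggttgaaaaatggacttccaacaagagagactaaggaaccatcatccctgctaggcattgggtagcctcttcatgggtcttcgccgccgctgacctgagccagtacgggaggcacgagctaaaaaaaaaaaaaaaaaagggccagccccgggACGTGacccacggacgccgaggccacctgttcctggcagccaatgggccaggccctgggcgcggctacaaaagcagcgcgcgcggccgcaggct

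In Ankrd1 the 2 matches begin 210 and 123 bases before the start, in Ccn1 the match begins 103, in Car9 18 and in Gatm 94 bases before it. GGAATG was present in 9 of the 39 called genes that have a promoter in the table (23.1%) and in 13.2% of the 15614 tested genes that have one. By direction it was present in 4 of 21 genes called higher and in 5 of 18 called lower. ACGTG was present in 7 of 39 (17.9%) against 20.9%, CACGTG, which contains ACGTG, in 4 (10.3%) against 8.11%, TGACTCA in 2 (5.13%) against 4.75%, TATAAA in 4 (10.3%) against 12.5% and GGGCGG in 25 (64.1%) against 49.3%. All were searched on both strands. The genes shown above each hold a match, but other called genes of the same lists do not. The promoter of Gadd45b, also a called YAP and TEAD gene, held no TEAD core. The promoter of Car12, the other called hypoxia gene, held no hypoxia core. Ccn2 had no promoter to search. The counts describe letters only, and no binding was measured.

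Of 16 measured genes of creatine, arginine and urea handling 1 was called higher and 2 lower, and 13 did not pass. Over all genes 0.166% were called higher and 0.115% lower. The list's median pooled change was 0.01, equal to that of all genes. Gatm encodes the amidinotransferase that begins creatine synthesis from arginine and glycine. Its log2 level was 6.56, 6.16 and 4.95 in primary lines 1 to 3, 7.19, 7.60 and 7.77 in the lung lines and 8.78, 8.93 and 8.97 in the brain lines. No lung line overlapped a primary line and no brain line a lung line, and primary line 3 lay far below the others. The pooled log2 change was 2.32 ± 0.29 (SE, limma adjusted p = 0.0204), and it was between 1.85 and 2.65 when any 1 line was left out. The lung change was 1.63 ± 0.34 and the brain change 3.01 ± 0.34, and brain minus lung, at 1.37, did not pass (adjusted p = 0.0782).

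Ckb, the brain-type creatine kinase, which stores high-energy phosphate on creatine, went the other way. It read 8.71, 8.94 and 8.83 in primary lines, 8.41, 8.49 and 8.40 in lung lines and 7.88, 7.71 and 7.31 in brain lines. The 3 origins did not overlap, and the pooled change was -0.79 ± 0.11 (adjusted p = 0.0355). Slc14a1, a urea transporter, was called with a pooled change of -1.67 ± 0.20 (adjusted p = 0.0204). Its lung lines, at 8.39, 8.02 and 7.52, overlapped the primary lines at 8.19, 8.25 and 7.95, while the brain lines lay at 5.29, 4.97 and 4.55.

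Of 37 measured cell cycle genes 1 was called, against 0.281% of all genes. It was Ccnd2, which encodes cyclin D2, the activator of the G1 kinases. It read 7.03, 6.94 and 6.25 in primary, 7.69, 7.32 and 7.33 in lung and 9.66, 9.85 and 9.31 in brain lines. The lung lines lay just above the primary lines and the brain lines far above both, with a pooled change of 1.79 ± 0.18 (adjusted p = 0.0195) and a brain minus lung difference of 2.16 ± 0.21 (adjusted p = 0.00315). Outside the list, Ccng2, which encodes the unconventional cyclin G2, fell (-0.78 ± 0.09), as did Ccnjl, which encodes a cyclin J-like protein (-0.50 ± 0.06), and Cenpk, which encodes a kinetochore subunit (-0.53 ± 0.08). The members Ccna2, Birc5 and Mcm2, which serve mitosis and DNA replication, separated without a call, with changes of 0.19, 0.23 and 0.06. The median of the list was 0.02.

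**Figure D2:**
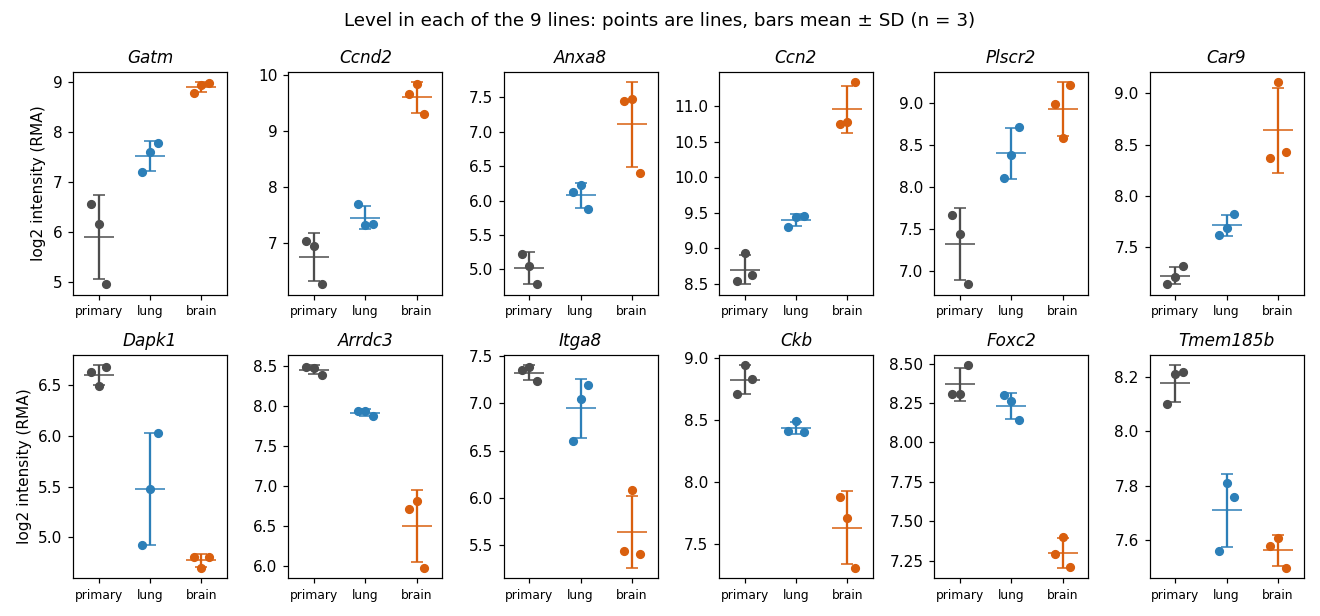
Log2 intensity (vertical axis, scale differs by panel) of 12 called genes in each of the 9 lines, grouped by origin on the horizontal axis; points are lines, and bars give the mean and SD of 3 lines. In every panel the 6 metastasis lines lie on 1 side of the 3 primary lines, and in 10 of the 12 (not in Plscr2 and Tmem185b) the brain lines lie entirely beyond the lung lines.

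Targets of the YAP and TEAD factors, which read cell tension and density through the Hippo pathway, were called higher in 4 of 22 measured genes, against 0.166% of all genes, and 18 did not pass. The list's median was 0.17, against 0.01 for all genes. Ccn2, the matrix-associated protein CTGF, read 8.54, 8.94 and 8.63 in primary, 9.30, 9.44 and 9.46 in lung and 10.75, 10.78 and 11.34 in brain lines. The steps were clear of any overlap, with a pooled change of 1.47 ± 0.14 (adjusted p = 0.0195) and brain minus lung 1.55 ± 0.16 (adjusted p = 0.00377).

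Ankrd1, an ankyrin repeat protein of muscle and wounded epithelium, differed in its pattern. It read 10.13, 10.15 and 10.38 in primary, 10.55, 10.61 and 10.80 in lung and 10.79, 10.99 and 10.84 in brain lines. All metastasis lines lay above all primary lines, but the brain and lung lines overlapped, and brain minus lung was 0.22 (adjusted p = 0.327) beside a pooled change of 0.54 ± 0.08 (adjusted p = 0.0415). Ccn1, the relative of Ccn2 also called CYR61, was called (0.80 ± 0.13, adjusted p = 0.0424), but primary line 3, at 10.40, lay above the lung lines at 10.21, 10.20 and 10.17. Gadd45b, a stress-induced growth arrest gene, was called (0.98 ± 0.13) on the brain lines, since its lung change was 0.10 ± 0.15. Wwc1, an upstream Hippo protein also called KIBRA, stands outside the naming rule and was picked after its values were seen. It rose by 0.54 ± 0.09, with no overlap between the 3 origins.

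Of the 32 measured TGF-beta and BMP genes 3 were called higher and 0 lower, against 0.166% and 0.115% of all genes, with a median of 0.02. Ccn2 and Ccn1 are also in the YAP and TEAD list, and the third was Pmepa1, a TGF-beta-induced inhibitor of Smad signaling. It read 9.79, 9.62 and 9.65 in primary, 9.91, 10.12 and 9.96 in lung and 10.72, 10.83 and 11.09 in brain lines. The 3 origins were in order without overlap (pooled change 0.75 ± 0.09, adjusted p = 0.0204). In the matrix list 1 of 40 rose, the glycoprotein gene Thbs1 (0.69 ± 0.09), and 1 fell, the basement membrane collagen gene Col4a1 (-0.44 ± 0.07). In both, lung lines overlapped primary lines.

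Hypoxia genes were called higher in 2 of 28 measured, with 0 lower, against 0.166% and 0.115% of all genes, and the list's median was 0.07. Both were membrane carbonic anhydrases, which hydrate CO2 outside the cell and help tumor cells to export acid. Car9 read 7.14, 7.21 and 7.31 in primary, 7.62, 7.69 and 7.82 in lung and 8.37, 9.11 and 8.43 in brain lines (pooled change 0.95 ± 0.15, adjusted p = 0.0415). Car12 read 7.54, 7.72 and 7.24, then 7.77, 7.81 and 7.99, then 8.82, 8.79 and 9.13 (0.88 ± 0.12, adjusted p = 0.0213). In each the origins followed in order with no overlap, narrowly so between lung line 1 and primary line 2 in Car12. In P4ha2, a collagen prolyl hydroxylase, the lines also separated, but the change of 0.51 did not pass (adjusted p = 0.185).

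Death regulators included falls. Dapk1, a kinase that promotes cell death and autophagy, read 6.63, 6.49 and 6.68 in primary, 4.92, 5.48 and 6.03 in lung and 4.81, 4.70 and 4.81 in brain lines. The lung lines were spread over most of the distance between the other origins, with lung line 1 next to the brain lines. The pooled change was -1.47 ± 0.19 (adjusted p = 0.0204), and brain minus lung, -0.70, did not pass (adjusted p = 0.152). Tnfsf10, which encodes the death ligand TRAIL, lay low throughout, with means of 4.00 in brain, 4.78 in lung and 5.09 in primary lines, and is given without a fold since the brain mean is below background. Trp53inp1, a p53 target, separated but did not pass (-0.79 ± 0.14, adjusted p = 0.0668). Of the 28 measured members 1 was called higher and 2 lower, against 0.166% and 0.115% of all genes.

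Arrdc3, an alpha-arrestin that guides the ubiquitination and breakdown of membrane receptors, read 8.49, 8.48 and 8.39 in primary, 7.94, 7.94 and 7.87 in lung and 6.71, 6.81 and 5.98 in brain lines. The lung lines agreed closely with each other and sat below all primary lines (pooled change -1.25 ± 0.16, adjusted p = 0.0204; brain minus lung -1.42 ± 0.18, adjusted p = 0.00686). Itga8, an integrin alpha chain, read 7.35, 7.39 and 7.24 in primary, 6.60, 7.05 and 7.20 in lung and 5.44, 6.08 and 5.40 in brain lines, so that lung line 3 was only just below the lowest primary line (-1.03 ± 0.17, adjusted p = 0.0425). Plcg2, a phospholipase of receptor signaling, fell by 0.57 on the log2 scale (± 0.07), and Map1lc3b, the autophagosome protein LC3B, by 0.48 (± 0.06). The other, dimmer probe set of Map1lc3b gave -0.50 (adjusted p = 0.152 over all probe sets).

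Of 26 measured mesenchymal genes 1 was called lower, against 0.115% of all genes. This was the transcription factor gene Foxc2, and the list's median was -0.10. Foxc2 read 8.31, 8.31 and 8.49 in primary, 8.30, 8.26 and 8.14 in lung and 7.29, 7.40 and 7.21 in brain lines, a pooled change of -0.60 ± 0.07 (adjusted p = 0.0204) with a lung change of -0.14 ± 0.08. Of 37 epithelial genes 0 were called in limma (median 0.11), against 0.281% of all genes. Only Krt19, a simple epithelial keratin, separated, against 3.41% of all genes. It read 8.56, 8.68 and 7.53 in primary, 9.03, 9.09 and 8.97 in lung and 9.50, 9.68 and 9.39 in brain lines, and the change of 1.02 ± 0.21 did not pass (adjusted p = 0.109).

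Some called genes outside the lists fell by small amounts, in strict order from primary to lung to brain lines. Cd24a, a surface glycoprotein of mammary epithelial cells, read 11.57, 11.59 and 11.77 in primary, 11.32, 11.38 and 11.34 in lung and 10.99, 11.09 and 11.12 in brain lines (pooled change -0.44 ± 0.06, adjusted p = 0.0370). Tfap2a, the transcription factor AP-2 alpha, fell by 0.43 (± 0.07, adjusted p = 0.0470), the called gene nearest to the threshold. Erbin, a scaffold that binds the receptor Erbb2, fell by 0.42 (± 0.06). Sox9, a progenitor transcription factor named here after its values were seen, fell by 0.36 (± 0.06), the smallest change among called genes. The genes just outside the threshold were Dusp27 (-1.16, adjusted p = 0.0519) and Pde5a (-0.72, adjusted p = 0.0519).

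Genes of signaling between cells were called in both directions. Over all genes 0.166% were called higher and 0.115% lower. Among 40 measured cytokine genes Csf1, the macrophage growth factor, was called higher (0.44 ± 0.07) and Tnfsf10 lower. Among 51 Notch and Wnt genes the Notch ligand gene Dll4 was called lower (-1.19 ± 0.17) and Wnt10a higher (0.45 ± 0.07). In Csf1, Dll4 and Wnt10a lung lines overlapped primary lines, with lung changes of 0.14, -0.32 and 0.09. In the amino acid stress list Slc7a11, the cystine transporter gene, was the 1 called of 31 (-0.95 ± 0.15), and primary line 1, at 6.54, lay among the lung lines at 6.51, 6.61 and 6.58.

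Other rises came from genes outside the lists. Anxa8, a calcium-dependent membrane-binding annexin, read 5.23, 5.05 and 4.78 in primary, 6.12, 6.23 and 5.88 in lung and 7.45, 7.48 and 6.40 in brain lines (pooled change 1.58 ± 0.22, adjusted p = 0.0343). Plscr2, a member of the phospholipid scramblase family, read 7.67, 7.44 and 6.84, then 8.11, 8.38 and 8.72, then 8.99, 8.59 and 9.22 (1.35 ± 0.20, adjusted p = 0.0413). Both had a lung change above 1 (1.06 and 1.09), and Plscr2 overlapped between lung and brain lines.

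Rgs16, which shortens G protein signals, rose by 1.17 ± 0.17 and S100a7a, a small calcium-binding protein, by 1.04 ± 0.16. Igf2bp1, a fetal RNA-binding protein, rose by 1.10 ± 0.15, while its other probe set lay below background at a mean of 3.20. Sh2d1b1, an adaptor known from natural killer cells, rose by 0.87 ± 0.11, and Il18rap, a subunit of the interleukin-18 receptor, by 0.64 ± 0.10. Of the leukocyte markers Ptprc was below background in all 3 origins (means 3.87 to 3.92) and Cd68 above it (6.01 to 6.15), and neither was called. The leukocyte integrin gene Itgb2, picked after its values were seen, had means of 7.93 in primary, 8.48 in lung and 9.05 in brain lines and did not pass (adjusted p = 0.151). The part of leukocyte RNA in these rises was not tested. Tmem184a (0.86 ± 0.09) and Gphn, the scaffold protein gephyrin (0.65 ± 0.10), also rose.

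The remaining lists had 0 called members in limma: prostaglandin genes (15 measured, median 0.01), cholesterol synthesis (20, 0.19), matrix proteases (41, -0.03), ERK feedback and immediate early genes (34, -0.05), antioxidant genes (34, -0.03), interferon and antigen presentation (32, 0.05), published metastasis genes and suppressors (39, 0.00) and guidance molecules (46, -0.02). The cholesterol median combined opposite values, -0.14 in lung and 0.55 in brain lines. Of the 34 ERK genes 4 separated, 1 higher and 3 lower, against 3.41% of all genes. Dusp4, a phosphatase of the ERK pathway, was lower (-0.50 ± 0.09, adjusted p = 0.0666). So was the immediate early transcription factor gene Egr2 (-0.46 ± 0.12, adjusted p = 0.192). The others were Dusp5 and Spry2. The protease gene Adam12 separated with a change of 1.11 ± 0.20 (adjusted p = 0.0611). None of the 39 genes of the published metastasis list separated. Over all genes 3.41% separated and 0.281% were called, so a count of 0 in a list of this size lies near those shares.

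**Figure D3:**
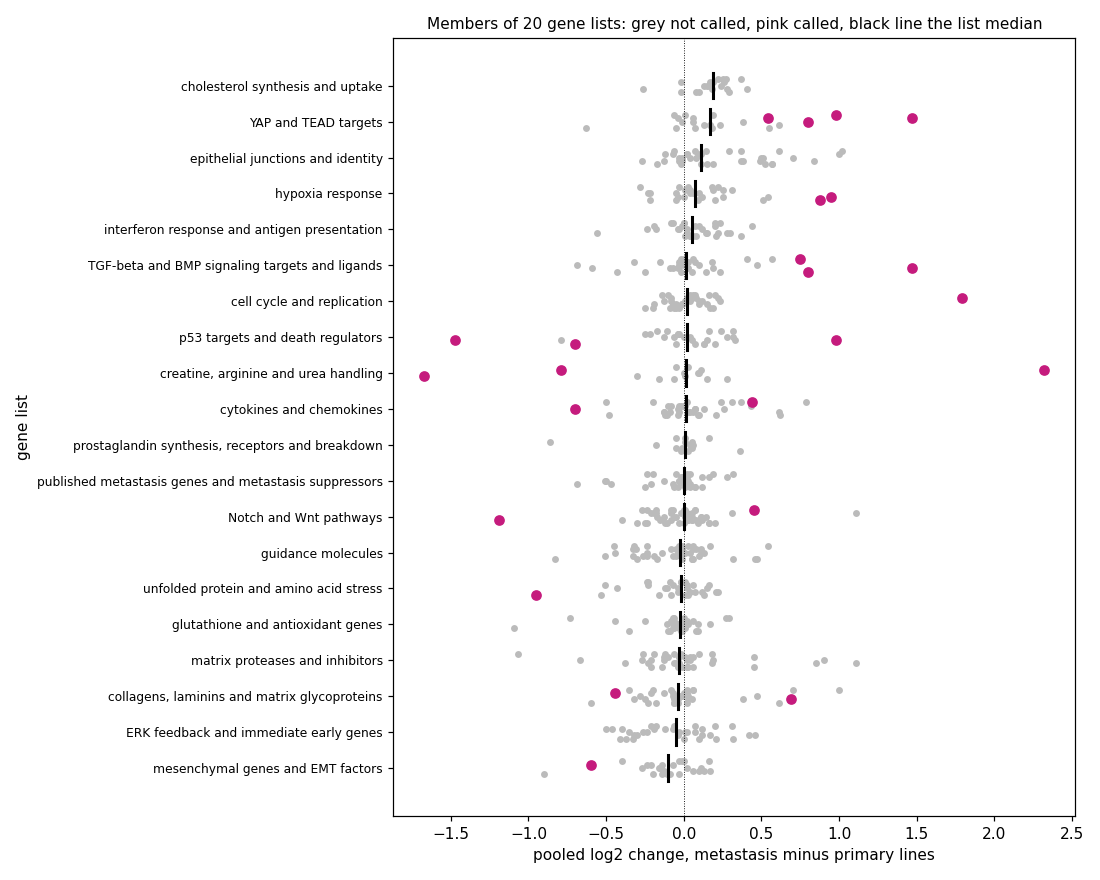
Pooled log2 change, metastasis minus primary lines (horizontal axis), of every measured member of 20 gene lists (vertical axis, ordered by median); grey points were not called, pink points were called and black lines are medians. Medians lie between -0.10 (mesenchymal genes) and 0.19 (cholesterol synthesis), and the YAP and TEAD list holds 4 called genes, all higher.

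The grading from lung to brain was read from the difference between brain and lung lines. With 3 lines per origin this difference is orthogonal to the pooled change, so noise in the pooled change does not fix its sign, although the variance estimate is shared. A change in the brain lines alone would still give both a pooled call and brain beyond lung. The lung change was under 25% of the brain change in 23 of the 56 called genes. Brain beyond lung therefore does not by itself show a change in the lung lines. Brain lay beyond lung in 56 of 56 called genes (33 of 33 higher and 23 of 23 lower), in 536 of the 680 separated genes (78.8%) and in 58.9% of all genes. The difference itself passed in 41 of the 56 genes, against 1.98% of all genes, and 15 did not pass. The number of genes passing both tests fell to 0 in the fit that left out primary line 2, and likewise for lung line 2 and for lung line 3, and was 4 without lung line 1, 3 without primary line 3, 10 without primary line 1 and 20 to 38 without a brain line. Over all genes, brain minus lung passed in 69 without lung line 2, 136 without lung line 1, 142 without lung line 3 and 208 and 217 without brain lines 2 and 3. With the mouse number as a block it passed in 43, with Anxa8 (0.0197), Sh2d1b1 (0.0267) and Gsn (0.0224) gained and Igf2bp1 (0.0648) lost.

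A strict order of all lines, primary then lung then brain with no overlap, was found in 201 genes (1.01%), 98 upward (0.492%) and 103 downward (0.517%). The order primary then brain then lung was found in 10 genes (0.0502%), none of them called. In the other 469 of the 680 separated genes brain and lung lines were mixed. Of the 39 genes that were called and separated, 35 were in strict order (0.176% of all genes). The exceptions were Plscr2, Ankrd1, Tmem185b and Cenpk, in which brain and lung lines overlapped.

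The evenest genes, by brain minus lung relative to the pooled change, were led by Tmem185b, a transmembrane protein gene. It read 8.10, 8.21 and 8.22 in primary, 7.56, 7.81 and 7.76 in lung and 7.58, 7.61 and 7.50 in brain lines. Its lung change was -0.47 ± 0.08 and its brain change -0.61 ± 0.08, and the difference, -0.14, did not pass (adjusted p = 0.467). By the size of brain minus lung alone, the steepest of the called genes in strict order was Ccnd2, followed by Ccn2, Rgs16 (brain minus lung 1.54 ± 0.19) and Arrdc3.

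**Figure D4:**
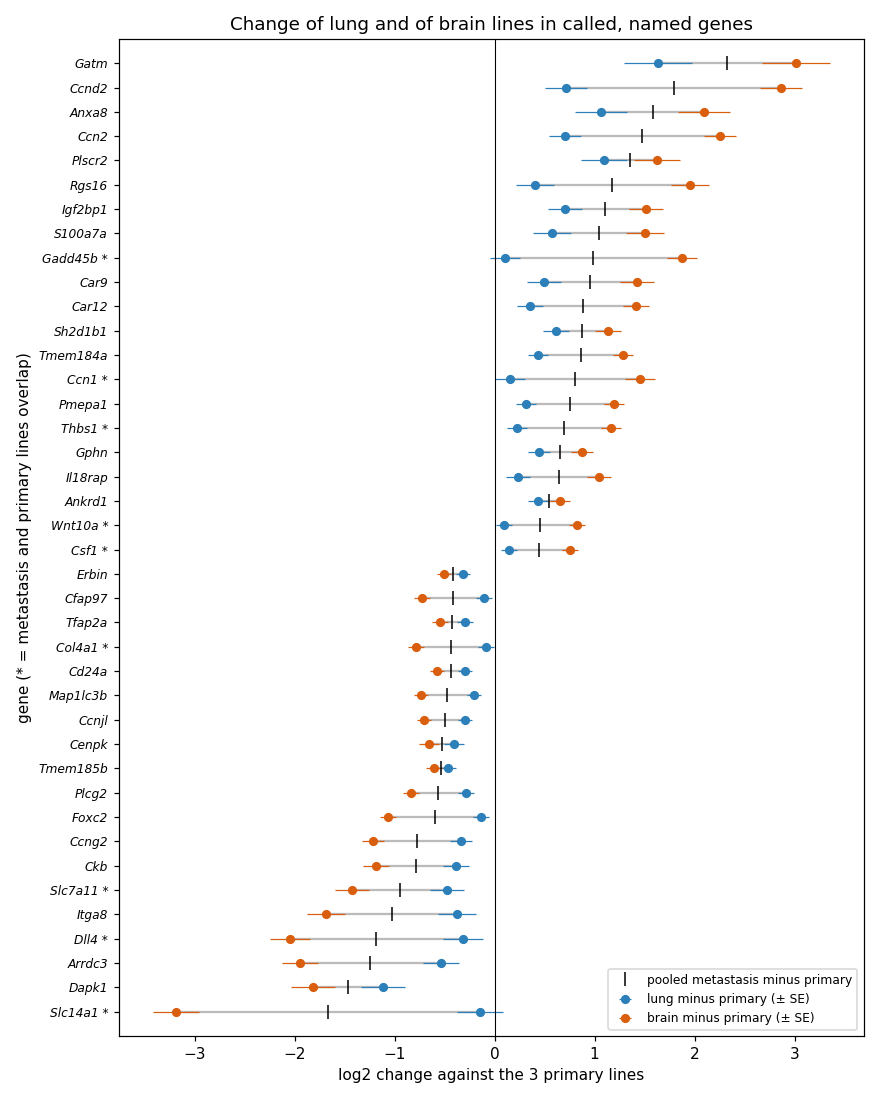
Log2 change against the 3 primary lines (horizontal axis) of the lung lines (blue) and the brain lines (orange), with SE bars, for 40 called and named genes (vertical axis); the black tick is the pooled change and an asterisk marks genes whose metastasis and primary lines overlap. Both origins share the primary lines as reference; orange lies beyond blue in every gene, by 0.14 in Tmem185b and by 3.04 in Slc14a1.

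Marker lists of other cell types held 0 called members in limma, against 0.281% of all genes. Flt1, with means of 7.61 in brain, 7.88 in lung and 8.13 in primary lines, was the only member of these lists outside mammary epithelium to separate. The summed intensity of 8 endothelial markers was 304 to 385 in metastasis and 412 to 431 in primary lines. Their mean log2 level was 4.56 to 4.74 in metastasis and 4.67 to 4.70 in primary lines, with no separation. A sum follows its brightest member, here Flt1, and in the astrocyte list Gja1 (means 10.96 to 11.13). The summed intensity of 11 epithelial markers was 19700 to 24900 in metastasis and 17400 to 20100 in primary lines. For astrocytes it was 2200 to 2450 and 1990 to 2260, for leukocytes 176 to 203 and 189 to 199, for lung epithelium 161 to 186 and 171 to 180, and for fibroblasts 441 to 510 and 490 to 606. For neurons it was 242 to 321 and 266 to 283, and for oligodendrocytes and microglia 230 to 272 and 222 to 252. Any part of these cell types in the results was not tested.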

How the data were processed

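RNA of 9 cell lines was measured on 1 Affymetrix Mouse Gene array each. The deposited table holds log2 intensities, and the submitters' processing notes name RMA as the authors' method. The log base was read from the range of the values. No RMA version or genome build is given in the sources used here. Of 35557 probe sets, 21789 had 1 gene symbol, 1621 several and 12147 none. Genes were named from the first kind only, with symbols updated through the gene ID to RefSeq (GRCm38.p6, 19856 matched). In 999 genes with several probe sets the brightest by mean over all arrays was kept, which left 19938 genes.

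Genes were tested with limma 3.58.1 in R 4.3.3 (lmFit and eBayes, two-sided; 6 residual and 3.72 prior degrees of freedom) with a coefficient per origin. The pooled contrast was the mean of brain and lung minus primary. Calls required p under 0.05 after Benjamini-Hochberg adjustment over all genes, and errors are standard errors. The code was tested on simulated data, and precision is limited by having 3 arrays per origin.

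The comparison and the 20 gene lists and 8 marker lists (699 symbols, 667 matched, 4 through an older symbol) were chosen with earlier results of these data known. Named genes were the 15 largest rises and falls among called genes without overlap, the 10 most even, up to 10 in strict order with the steepest grading, and up to 3 called members per list, or up to 2 that separated where none was called. Predicted, olfactory, vomeronasal, histone and small RNA genes were left out. Others are said to be chosen afterwards. A gene with a group mean below 4.21 has no fold.

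The titles number mice 1 to 3 in each origin, and the series' design text gives 9 mice. Same-numbered brain and lung lines deviated together from their means (r across genes 0.284, 0.130 and 0.241, each above 0.1), so blocked values of that difference are given where they change a call. This pairing comes from the data alone. Alternatives were the block, other normalization, filters, thresholds, probe sets, weights, priors and leaving out each line. Promoters came from RefSeq, with 39 of 56 called genes matched.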

Additional observations from a re-analysis of the deposited data

Results flagged for a closer look

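In 29 of the 41 called and named genes the change from primary lines differed between brain and lung lines (limma adjusted p under 0.05). Over all genes 1.98% passed this test. The naming rule chose genes partly by brain minus lung, so the count is partly set by that rule. Brain minus lung, on the log2 scale, was positive in Ccnd2 (2.16), Ccn2 (1.55), Rgs16 (1.54), Igf2bp1 (0.81), S100a7a (0.94), Car9 (0.93) and Car12 (1.06). It was also positive in Tmem184a (0.85), Pmepa1 (0.88), Il18rap (0.81), Thbs1 (0.94), Csf1 (0.61), Ccn1 (1.29), Gadd45b (1.76) and Wnt10a (0.73). It was negative in Arrdc3 (-1.42), Itga8 (-1.31), Ckb (-0.80), Ccng2 (-0.88), Tnfsf10 (-0.78), Foxc2 (-0.93) and Plcg2 (-0.55). The brain mean of Tnfsf10 is below background, so the size of its difference is not resolved. It was also negative in Ccnjl (-0.41), Map1lc3b (-0.53), Cfap97 (-0.61), Slc14a1 (-3.04), Col4a1 (-0.70), Dll4 (-1.73) and Slc7a11 (-0.95). With the mouse number as a block Igf2bp1 no longer passed (adjusted p = 0.0648), and Anxa8 (0.0197) and Sh2d1b1 (0.0267) did. None of the 48 named genes had 1 metastasis line far from the other 5 by Dixon's test for 6 values (critical value 0.625). The test flags about 1 in 20 uniform groups by chance. Here the 6 values join brain and lung lines, so where these lie apart the test can hardly flag a single line. It therefore cannot decide whether 1 line stands apart, and primary lines were not tested.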

How the results depend on the processing

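For the pooled comparison, 56 genes became 116 with the replicate block, 116 with quantile normalization again, 98 without the dimmest genes, 139 with array weights, 37 at 1.5-fold or more, 1 without moderation of the variances and 0 at an adjusted p under 0.01, with every probe set or with 2 groups. Leaving out a line gave 0 to 54. The intensity trend gave 71 and median centring 46. Of the 56 genes, 54 were kept with the block, 56 with quantile normalization, 55 without dim genes, 56 with array weights, 53 with the trend and 41 with centring. Centring lost the call of 9 of the 41 called and named genes. These were Itga8, Tmem185b, Cenpk, Cd24a, Tfap2a, Cfap97, Ankrd1, Erbin and Col4a1. No direction reversed among the 48 named genes.

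Called genes that also passed brain minus lung, 41 in the main model, numbered 80 with the block, 75 with quantile normalization again, 71 without dim genes, 88 with array weights, 0 with every probe set, at 0.01 or without moderation, and 0 to 38 without a line. Brain minus lung, 395 genes, gave 92 with every probe set, 66 at 0.01, 218 at 1.5-fold, 3 without moderation and 69 to 417 without a line. Brain minus primary, 624, gave 246, 157, 319 and 51 under the same settings, and 273 to 556 without a line. Lung minus primary gave 1 gene without moderation and 0 otherwise, also without any 1 line (0 to 0).

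Separated genes, 680, became 1080 with every probe set, 28 with a gap of at least 0.2 and 768 to 1628 without a line, since fewer lines overlap less easily. Genes in strict order, 201, became 103 with median centring, 16 with that gap and 249 to 409 without a line. The cause of the other shifts was not tested. In the replicate block, same-numbered primary and brain lines correlated at 0.0666, -0.000736 and -0.0442. Primary and lung lines correlated at 0.221, 0.0785 and 0.00798. Whether the numbers pair the primary lines cannot be told from these values.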

Other observations

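Among genes that separated without being called, the largest changes in genes above background were in Gpnmb, a transmembrane glycoprotein of lysosomes and melanosomes (-1.21 ± 0.24, limma adjusted p = 0.0845), and Mirt1, a long noncoding RNA (1.19 ± 0.20, adjusted p = 0.0552). Acot1, an acyl-CoA thioesterase, followed (-1.16 ± 0.20, adjusted p = 0.0559). Acot1 read 6.15, 5.85 and 6.99 in primary, 5.67, 5.61 and 5.76 in lung and 4.72, 4.71 and 4.53 in brain lines. Vash2, a relative of vasohibin, was even across organs, with a lung change of -0.54 and a brain minus lung difference of -0.18. The beta-2 integrin gene Itgb2 read 8.19, 8.01 and 7.59 in primary, 8.28, 8.22 and 8.94 in lung and 9.41, 8.83 and 8.90 in brain lines (adjusted p = 0.151).

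The 10 genes in the order primary, brain, lung had pooled changes between -0.59 and 0.60. Among them were Dlg4, the synaptic scaffold PSD-95 (lung 0.74, brain 0.46), and Castor1, an arginine sensor of the mTORC1 pathway (lung 0.64, brain 0.48). Neither was called (adjusted p = 0.167 and 0.158). All genes named here lie outside the naming rule and were picked with their values in view.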
